A study of Mus musculus with 8 samples.

Results

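Dimethylation of lysine 9 of histone H3 (H3K9me2) was mapped by chromatin immunoprecipitation followed by sequencing (ChIP-seq) in mouse embryonic fibroblasts (MEFs), and the map of this mark is described here. Its members were the 29119 intervals of the H3K9me2 list as analysed here, all on the 21 main chromosomes, out of 98931 intervals in the lists of H3K9me1, H3K9me2 and H3K9me3. The H3K9me2 group had 2 replicates and the input group, which is chromatin sequenced without immunoprecipitation, also had 2. The labels give the genotype of all 8 samples as wild type and name no treatment, time or age. According to the study's methods, these cells were E1c MEFs, a clonal line with an Eset1 gene that tamoxifen can delete and that is intact without it, so the H3K9me2 and input samples share this allele. The list gave chromosome, start and end only, in steps of 0.75 kb. One list stood for both replicates, and no list of the input was analysed here. Values per replicate, SDs and tests across samples could therefore not be given, and the depth behind a region is unknown. Intervals in parentheses are 95% intervals and cover counting error only, since regions or genes that lie side by side are not independent.

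H3K9me2 is a mark of silent chromatin that is laid down mainly by the G9a and Glp methyltransferases, encoded by Ehmt2 and Ehmt1. HP1 proteins and other readers can bind methylated H3K9. The mark is known for broad domains over silent euchromatic genes and gene-poor sequence, while promoters rich in CpG dinucleotides are usually free of it. MEFs are mesenchymal cells that secrete collagens and other matrix proteins and do not use the receptors of sensory neurons. The list holds no expression values, so the cell type could not be checked against its markers.

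The results below turn on the CpG content of gene starts, and the 300 bases before the annotated 5' end of 6 genes are shown for that reason. They were read from the GRCm38 (mm10) sequence, 5' to 3' in the direction of the gene, with each CpG in capitals. Defb40 (a beta-defensin, chr8:18978257-18978556, minus strand), Treml4 (a myeloid receptor, chr17:48263995-48264294, plus strand) and Olfr1431 (an odorant receptor, chr19:12200334-12200633, plus strand) are genes the study names for this mark. Anks1b (a postsynaptic protein, chr10:89873209-89873508, plus strand), Zfp423 (a zinc finger transcription factor, chr8:87959596-87959895, minus strand) and Pcdh15 (a protocadherin of hair cells, chr10:73099042-73099341, plus strand) have long covered bodies and starts rich in CpG, and were picked as examples after their values were seen.
Defb40: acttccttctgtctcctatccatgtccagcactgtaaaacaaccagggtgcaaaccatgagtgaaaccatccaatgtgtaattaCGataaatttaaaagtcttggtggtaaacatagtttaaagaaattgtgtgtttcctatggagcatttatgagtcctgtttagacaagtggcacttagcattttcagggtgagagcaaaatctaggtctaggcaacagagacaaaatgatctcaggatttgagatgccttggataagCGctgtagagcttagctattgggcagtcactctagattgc
Treml4: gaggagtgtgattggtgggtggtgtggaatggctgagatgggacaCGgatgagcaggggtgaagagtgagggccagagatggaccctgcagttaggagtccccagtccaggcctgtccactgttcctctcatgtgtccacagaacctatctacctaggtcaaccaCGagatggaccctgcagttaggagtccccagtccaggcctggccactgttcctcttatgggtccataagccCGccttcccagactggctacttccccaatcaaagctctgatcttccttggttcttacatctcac
Olfr1431: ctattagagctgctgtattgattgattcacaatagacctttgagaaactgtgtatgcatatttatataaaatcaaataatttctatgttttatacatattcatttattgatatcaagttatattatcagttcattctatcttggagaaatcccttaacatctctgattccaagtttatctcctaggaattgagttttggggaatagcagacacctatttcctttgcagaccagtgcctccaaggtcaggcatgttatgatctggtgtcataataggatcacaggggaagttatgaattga
Anks1b: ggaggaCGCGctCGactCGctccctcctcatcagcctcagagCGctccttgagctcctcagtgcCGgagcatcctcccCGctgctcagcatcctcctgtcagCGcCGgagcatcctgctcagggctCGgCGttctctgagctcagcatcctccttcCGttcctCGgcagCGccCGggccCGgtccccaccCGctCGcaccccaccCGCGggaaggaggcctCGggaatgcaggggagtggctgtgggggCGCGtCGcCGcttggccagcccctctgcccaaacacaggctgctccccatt
Zfp423: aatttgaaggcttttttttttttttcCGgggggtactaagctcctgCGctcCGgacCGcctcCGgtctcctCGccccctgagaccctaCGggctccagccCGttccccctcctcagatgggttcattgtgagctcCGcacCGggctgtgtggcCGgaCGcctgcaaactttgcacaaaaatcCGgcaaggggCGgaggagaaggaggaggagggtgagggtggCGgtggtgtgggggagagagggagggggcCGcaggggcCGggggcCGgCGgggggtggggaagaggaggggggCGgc
Pcdh15: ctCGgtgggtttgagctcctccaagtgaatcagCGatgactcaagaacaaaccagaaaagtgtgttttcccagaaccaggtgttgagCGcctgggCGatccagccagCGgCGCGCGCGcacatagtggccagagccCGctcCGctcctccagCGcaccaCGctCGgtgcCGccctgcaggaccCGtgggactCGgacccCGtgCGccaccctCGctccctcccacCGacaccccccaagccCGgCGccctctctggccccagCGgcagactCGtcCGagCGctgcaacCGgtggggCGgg

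The stretches of Defb40, Treml4 and Olfr1431 held 2, 3 and 0 CpGs, while those of Anks1b, Zfp423 and Pcdh15 held 25, 20 and 29. All 300 bases lay in an H3K9me2 region for Defb40, Treml4 and Pcdh15 and 0 bases for Olfr1431, Anks1b and Zfp423. Defb40 (GRCm38 chr8:18974940-18978256) was covered over 52.9% of its body by a region of 5.25 kb, and Treml4 (chr17:48254251-48268500 for its region of 14.25 kb) over 38.0%. Olfr1431 was covered over 77.9% of its body, with the nearest region 1.12 kb from its 5' end and another annotated transcript start inside a region. Actb (beta-actin), the study's negative control, had 0 covered bases and lay 66.3 kb from the nearest region. Pou5f1 (Oct4) and Zfp180, whose loci the study used as positive controls for its H3K9 methylation antibodies, also had 0 covered bases. They lay 42.3 kb and 1189 kb from a region, and Zfp180 is on chromosome 7, which held few regions.

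The regions lay mostly on some of the chromosomes, and this bears on every value below. H3K9me2 covered at least 5% of the bases that are not N on 9 chromosomes, called broadly covered from here on, which were 5, 8, 9, 10, 11, 14, 15, 17 and 19. These chromosomes made up 38.2% of the assembly and held 27621 regions, or 94.9% of the list. They were covered over 23.7% of their length, from 6.24% of chromosome 11 to 58.9% of chromosome 10. The other 12 chromosomes held 1498 regions and were covered over 0.697%, with no region on chromosomes 18 and Y and a highest share of 2.69% on chromosome 2. The other lists were also mostly on these 9 chromosomes. H3K9me1 covered 28.8% of the same 9 chromosomes and 2.18% of the other 12, and H3K9me3 covered 26.2% and 2.26%. Among those 12, however, the H3K9me1 list passed 5% on chromosomes 1 and 2, at 5.76% and 12.1%, and the H3K9me3 list on chromosome 2, at 6.32%. Chromosome 10 stood at 56.5% in the H3K9me1 list and 58.8% in the H3K9me3 list. The cause of this uneven spread over chromosomes was not tested. Comparisons of genes were therefore made within the broadly covered chromosomes.

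**Figure D1:**
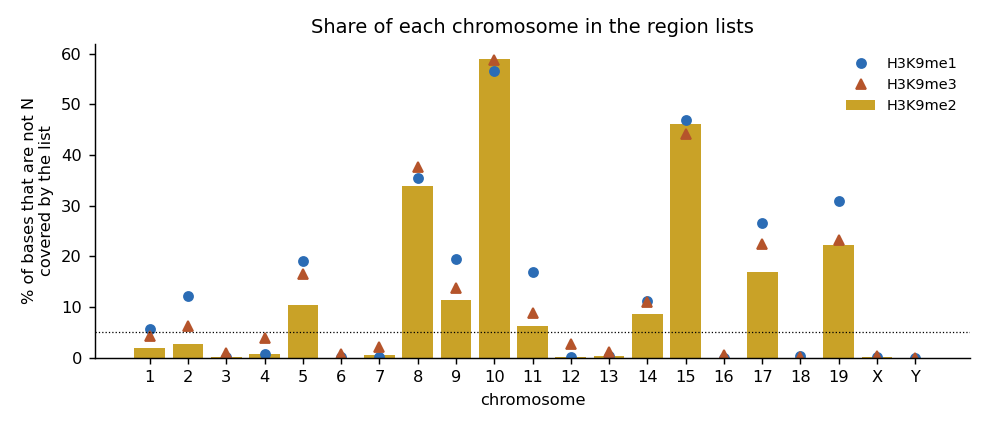
Percent of the bases that are not N covered by the region lists, by chromosome. Bars show H3K9me2, circles H3K9me1 and triangles H3K9me3, and the dotted line marks 5%. H3K9me2 reached 58.9% of chromosome 10, 46.1% of chromosome 15 and 33.9% of chromosome 8, and the other lists stood close to it there.

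Regions of H3K9me2 were mostly short, while most of the covered sequence lay in long ones. The list covered 250.9 Mb, or 9.48% of the bases that are not N. Widths ran from 0.75 kb to 405 kb, with a mean of 8.62 kb ± 13.8 (SD over 29119 regions) and a median of 4.5 kb. The most frequent width was 1.5 kb, with 3164 regions (10.9%), followed by 2.25 kb with 3114 (10.7%). Only 2141 regions (7.35%, 7.06% to 7.66%) were a single step wide, so few regions stood at the limit of resolution. The 6454 regions of at least 10 kb (22.2%) held 64.3% of the covered bases, and the 558 regions of at least 50 kb (1.92%) held 18.1%. The 3618 widest regions (12.4%), each of at least 15.75 kb, held 50% of the covered bases. Median widths of the 9 broadly covered chromosomes lay between 3.75 kb and 5.25 kb, so the chromosomes differed far more in the number of regions, from 8.65 per Mb on chromosome 11 to 53.0 per Mb on chromosome 10, than in their width.

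Of the 5 widest regions, 4 are named here. The widest, chr15:73934251-74339250 (GRCm38), measured 405 kb, was 97.8% intergenic and met 0 protein-coding genes. The region chr15:83826001-84053250 measured 227.25 kb and lay 92.2% in introns, over Mpped1 and Efcab6, with 0 coding starts inside. The region chr7:15150001-15372750 measured 222.75 kb, was 89.2% intergenic and met 0 protein-coding genes, although chromosome 7 held only 29 regions in all. The region chr10:79117501-79321500 measured 204 kb and held the starts of Vmn2r80 and Vmn2r81, pheromone receptors of the vomeronasal organ.

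Neighbouring regions lay close together, and wide regions lay closest when the broadly covered chromosomes were pooled. Over the broadly covered chromosomes, the median gap to the next region was 5.25 kb, 10.9% of the 27612 gaps were a single step of 0.75 kb, and 68.8% were at most 10 kb. On the other chromosomes the median gap was 28.5 kb (25.5 to 32.25 kb). After a region of up to 2.25 kb, the 25th percentile of width, the next region had a median width of 3.75 kb and lay 7.5 kb away. After a region of over 9 kb, the 75th percentile, the next had a median width of 7.5 kb and lay 3 kb away. The 4 width groups were set by these percentiles and the median. From the narrowest to the widest group, the median gap to the next region was 7.5, 6, 4.5 and 3 kb. The groups pool chromosomes that differ in both width and gap. The median width and gap were 5.25 kb and 3 kb on chromosome 10, and 3.75 kb and 9 kb on chromosome 9. The groups were not compared within a chromosome.

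**Figure D2:**
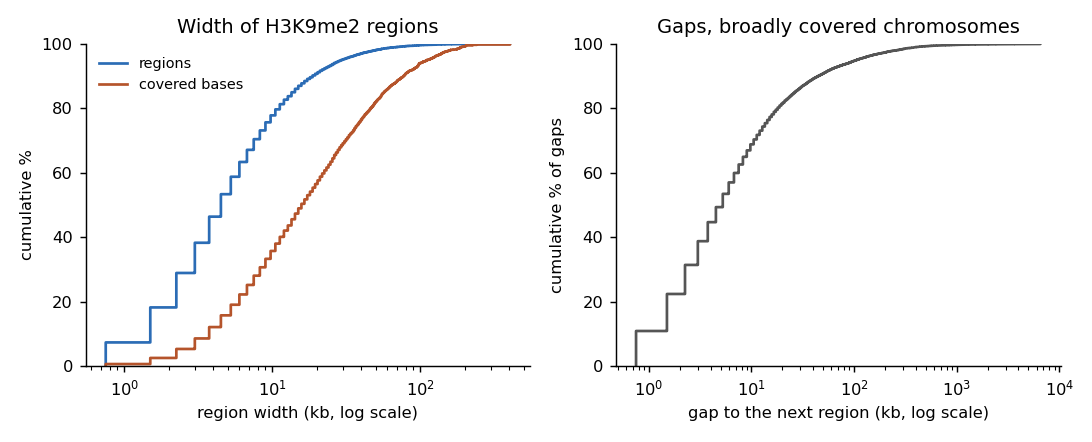
Left, cumulative percent of H3K9me2 regions and of the bases they cover against region width in kb (log scale). Right, cumulative percent of gaps between neighbouring regions on the broadly covered chromosomes against gap length in kb (log scale). The median region is 4.5 kb wide, whereas 50% of the covered bases are reached only at 15.75 kb.

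Joining neighbours up to 10 kb apart gave 1437 clusters of 5 or more regions. They held 16071 regions (55.2%) and 73.0% of the covered bases, with a median of 8 regions and a median span of 89.25 kb, of which 70.5% was covered. Single regions with no neighbour within 10 kb numbered 5258 (18.1%). Over the broadly covered chromosomes, the share of regions in clusters ran from 24.1% on chromosome 11 to 79.4% on chromosome 10, and on chromosomes 1 and 2 it was 9.88% and 4.51%. The spans of 91 clusters were at least 500 kb and those of 14 at least 1 Mb.

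The 4 clusters named here are among the 5 with the most covered bases, and they differed in gene content. One, chr10:128985001-130539750, held 43 regions, was covered over 94.5% and met 67 protein-coding genes, most of them odorant receptors such as Olfr763 and Olfr800. Another, chr10:91245751-92693250, met only Nedd1 (a centrosomal protein), and a cluster at chr17:3561751-4990500, met only Nox3 (an NADPH oxidase of the inner ear). The cluster at Nedd1 was covered over 94.7% of its span. The last, chr10:96645001-98316750, was the longest at 1671.75 kb and was broken into 124 regions that covered 78.4% of it. It met Dcn, Lum, Kera and Epyc, 4 proteoglycans of the extracellular matrix, and Dcn and Lum are known to be made by fibroblasts.

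Coverage also varied within each broadly covered chromosome. Of their 1016 windows of 1 Mb, 85 (8.37%) held 0 covered bases, 193 (19.0%) were covered over at least 50% and 29 over at least 80%. The median window was covered over 13.8%. On chromosome 10, 92 of 128 windows reached 50%, and on chromosomes 5, 9 and 14 none did, with highest windows at 44.8%, 48.7% and 49.7%. The densest window of chromosome 8 (92.4%) held Cbln1 and Zfp423, that of chromosome 15 (94.8%) held Col22a1, Kcnk9 and Trappc9, and that of chromosome 10 (94.3%) held 52 coding starts, among them Olfr763.

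Position along the chromosome had no common course. Mouse chromosomes carry the centromere at the low end of their coordinates. The 10% of chromosome 17 nearest to it was covered over 72.4% and the distal 10% over 6.20%. Chromosome 5 ran the other way, with 2.33% in the proximal 10% and 23.1% in the distal 10%. On chromosome 15, the proximal 10% of the length was covered over 55.8% and the next 10% over 8.32%, the lowest of that chromosome. Of the 9 broadly covered chromosomes, 5 had a proximal 10% above the share of the whole chromosome and 4 a distal 10% above it.

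Long stretches without H3K9me2 on the broadly covered chromosomes differed in gene content. The longest, chr14:110085751-116631750, spanned 6.55 Mb and held Slitrk6, Slitrk5 and Gpc5, and another on that chromosome (5.89 Mb) held Pcdh9, Klhl1 and Dach1. The longest on chromosome 5 (4.76 Mb) held Pcdh7, and that of chromosome 11 (4.02 Mb) held Tenm2. The 2 longest stretches of chromosome 10 met 0 protein-coding genes. The longest stretch of chromosome 15, of 537 kb, held 26 protein-coding genes, among them Eif4b, Rarg and Espl1.

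Gene starts were less often covered than the sequence around them. Of 55413 annotated genes, 4705 (8.49%) had their 5' end in a region. Among the 9632 protein-coding genes of the broadly covered chromosomes, 1285 (13.3%, 12.7% to 14.0%) did so, against 120 of 12306 on the other chromosomes. In the former, 20.5% of positions 20 kb upstream of the 5' end were covered and 17.8% of positions 20 kb downstream. The share at the start was below that at 20 kb upstream on 9 of 9 chromosomes and below both flanks on 7. On chromosome 10 it was 32.2% at the start against 60.5% upstream, and on chromosome 8 it was 18.8% against 31.6%. On chromosomes 9, 11 and 14 the share at the start was close to that upstream, with 8.10% against 8.18%, 4.39% against 4.45% and 11.9% against 12.1%.

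The dip was found at CpG-rich starts and not at CpG-poor ones. CpG content was taken as the observed over expected number of CpGs in the 1 kb around the 5' end, with rich starts above 0.6 and poor starts below 0.35. Of 4734 CpG-rich starts, 151 (3.19%, 2.73% to 3.73%) lay in a region, while of 3246 CpG-poor starts 914 (28.2%, 26.6% to 29.7%) did. Starts between these limits stood at 13.3% (220 of 1652), near the share over all protein-coding genes. The share was higher at CpG-poor starts on 9 of 9 chromosomes. It was 68.5% against 6.14% on chromosome 10, 59.0% against 9.16% on chromosome 15, and 22.8% against 2.65% on chromosome 19. Around CpG-rich starts, coverage was 14.1% at 5 kb upstream, 3.93% at 1 kb upstream, 3.19% at the start, 7.88% at 5 kb downstream and 15.4% at 50 kb downstream. Around CpG-poor starts it stayed between 27.0% and 29.4% from 5 kb upstream to 3 kb downstream.

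**Figure D3:**
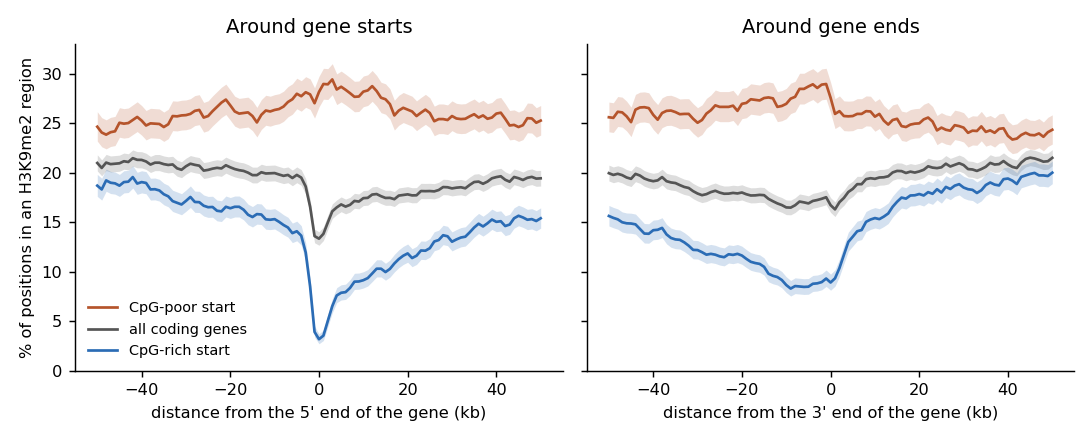
Percent of positions that lie in an H3K9me2 region against the distance from the 5' end (left) and the 3' end (right) of protein-coding genes on the broadly covered chromosomes, in steps of 1 kb with downstream positive. Lines show all 9632 genes, the 3246 with CpG-poor and the 4734 with CpG-rich starts, and shading shows 95% Wilson intervals of counting error. The CpG-rich line drops to 3.19% at the start, while the CpG-poor line stands at 28.2% there.

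Regions ended most often just upstream of CpG-rich starts. Read in the direction of the gene, 255 regions ended 2 kb upstream of a CpG-rich start (5.39 per 100 genes, within 0.5 kb of that position). At 6, 12 and 20 kb upstream, 91, 127 and 115 regions ended. At 2 kb upstream only 18 regions began. Downstream, the number of regions that began was 24 at the start, 60 at 1 kb, 100 at 2 kb (2.11 per 100 genes) and 50 at 5 kb. At CpG-poor starts no such step was seen, with 103 regions ending (3.17 per 100 genes) and 96 beginning (2.96 per 100 genes) 2 kb upstream.

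**Figure D4:**
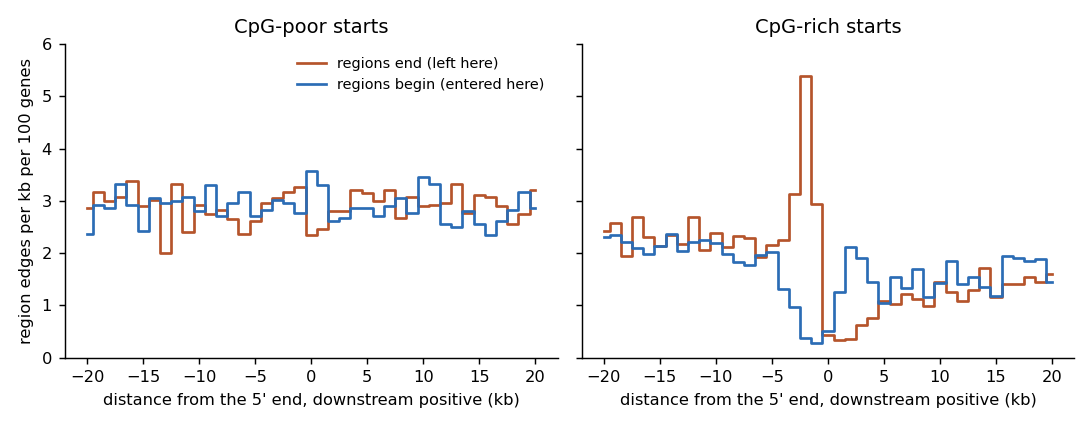
Number of H3K9me2 region edges per kb and per 100 genes against the distance from the 5' end in kb, for CpG-poor (left) and CpG-rich (right) starts of protein-coding genes on the broadly covered chromosomes. Regions that end in the direction of the gene reach 5.39 per 100 genes 2 kb upstream of CpG-rich starts and stay at 3.17 at CpG-poor starts.

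Genes covered over most of their body showed the same difference at the start. Of the 339 genes with a CpG-rich start and at least 50% of the body covered, 120 (35.4%, 30.5% to 40.6%) had the start in a region, against 735 of 947 (77.6%, 74.9% to 80.2%) with a CpG-poor start. These genes were picked by coverage in the same list, so the shares describe them and are no test. The starts outside regions lay in gaps with a median of 6.75 kb (6 to 8.25 kb) for CpG-rich and 6 kb (5.25 to 8.25 kb) for CpG-poor genes. For the CpG-rich ones, the nearest region lay a median of 2.81 kb upstream and 2.54 kb downstream. Anks1b and Zfp423 were such cases. Anks1b (chr10:89873509-90973300) was covered over 90.6% of 1100 kb and Zfp423 (chr8:87661810-87959595) over 97.6% of 297.8 kb. Their 5' ends lay 1.99 kb and 2.60 kb from the nearest region, but each gene had another annotated transcript start inside a region.

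Within genes of at least 10 kb, coverage was lowest in the first part of the body. The mean covered share was 13.6% in the first 10% of the body, 15.8% in the next 10% and 16.6% in the last 10%, over 6196 genes. For CpG-rich starts it was 6.05% in the first 10% and 10.2% between 70 and 80% of the length (3554 genes), whereas CpG-poor genes stood between 28.6% and 30.4% throughout (1575 genes). Past the 3' end, genes with CpG-rich starts passed from 8.91% at the end to 13.5% at 5 kb and 19.9% at 45 kb downstream. The covered share of the body was lowest at middling gene lengths. It was 19.9% for genes of up to 2 kb, 14.3% for genes of 10 to 20 kb and 24.7% for the 396 genes of over 200 kb, of which 109 (27.5%) had 0 covered bases.

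By annotation, H3K9me2 covered 25.6% of intergenic, 22.3% of intronic and 17.8% of exonic sequence of the broadly covered chromosomes. The order was the same on each of them except chromosomes 14 and 17. On chromosome 14 exons had the highest share, at 10.7% against 8.30% of intergenic sequence, and on chromosome 17 introns had it, at 18.0%. Intergenic sequence 5 to 20 kb from a gene was covered over 29.0%, and that at 100 to 500 kb over 14.4%. Over the whole list, 17363 regions (59.6%) met no protein-coding gene, 9738 (33.4%) lay inside one and 1619 (5.56%) crossed an end of one. The 399 regions (1.37%) that held a whole protein-coding gene had a median width of 26.25 kb, against 4.5 kb for those inside one. Non-coding genes of the broadly covered chromosomes had their 5' end covered more often than coding ones, with 28.2% of 2445 lincRNAs and 33.2% of 3600 processed pseudogenes against 15.1% of 1328 antisense genes. Processed pseudogenes are copies of mRNAs, so their sequence resembles that of the parent gene, and how reads with several matches were placed is not given in the sources used here.

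Of the 10 protein-coding genes with the most covered bases, 9 are named here. Pcdh15 led with 1295 kb of 1550 kb (83.5%). Gm20388, a predicted gene model, had 1136 kb (25.6%). Ctnna3 (an alpha-catenin) had 1083 kb (68.8%), and Anks1b (a postsynaptic protein) had 996.5 kb (90.6%). Zfhx3 (a homeobox transcription factor), Ctnnd2 (a neuronal delta-catenin) and Cdh13 (T-cadherin) had 696 kb, 583.1 kb and 520.4 kb. Lama2 (a laminin of basement membranes) had 457.8 kb and Nkain2 453.8 kb. Of these genes, Pcdh15 and Lama2 had the 5' end in a region. The others, except Gm20388, had another annotated transcript start inside a region. The 5 longest genes with 0 covered bases on the broadly covered chromosomes included Gpc5 (a glypican, 1433 kb), Sgcd (delta-sarcoglycan, 1093 kb), Pcdh9 (877.3 kb) and Erc2 (an active-zone protein, 856.1 kb). Their distance from the nearest region ran from 41.2 kb for Erc2 to 1540 kb for Gpc5.

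Gene families used outside fibroblasts were next compared with the 13.3% of all protein-coding starts on the broadly covered chromosomes. CpG content was not matched in the comparisons of gene families. CpG-poor coding starts there stood at 28.2% and CpG-rich ones at 3.19%. Of 458 odorant receptor genes there, 140 (30.6%) had the 5' end in a region and 269 had 0 covered bases, against 6376 of all 9632 coding genes (66.2%). The chromosomes differed widely, with 64 of 70 covered starts on chromosome 10, 35 of 82 on chromosome 11 and 1 of 132 on chromosome 9, where 8.10% of all coding starts were covered. At each chromosome's own share of coding starts, 57.3 of these 458 would be covered. Of 66 vomeronasal receptors, 13 (19.7%) were covered at the start, against 7.93 at the chromosomes' own shares. These were 8 of 8 genes on chromosome 10 and 5 of 45 on chromosome 17, where 9.66% of all coding starts were covered. On chromosomes 5 and 14, 0 of 11 and 0 of 2 were covered. In this family 40 of the 66 genes had 0 covered bases. Vmn2r81 and Vmn2r80, both on chromosome 10, were covered over 100% of their bodies. Olfr372, on chromosome 8, and Olfr287, on chromosome 15, were also covered over 100%. Defensins, which are antimicrobial peptides, had the highest share at 22 of 51 (43.1%), and their median body was covered over 18.8%. All 22 lay on chromosome 8, which held 46 of the 51 and where 44.4% of CpG-poor coding starts were covered. At each chromosome's own share of coding starts, 9.22 of the 51 would be covered. Cytochromes P450, which oxidise steroids and drugs, followed with 23 of 58 (39.7%) and a median body of 44.3%. Their starts were covered in 9 of 10 genes on chromosome 15 and 2 of 18 on chromosome 19. At the chromosomes' own shares, 7.62 of the 58 would be covered. Cyp3a16 was covered over 100% and Cyp19a1, the aromatase, over 45.1%.

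Epithelial and neuronal families were also above the share of all coding genes. Of 79 keratins and keratin-associated proteins 24 (30.4%) had a covered start. These were 21 of 26 on chromosome 15 and 3 of 3 on chromosome 10, while chromosome 11, with most of the list, had 0 of 50. Krt77, Krt90 and Krt75, all on chromosome 15, were covered over 100%. Cadherins and protocadherins stood at 8 of 23 (34.8%), voltage-gated ion channels at 11 of 32 (34.4%) and neurotransmitter receptors at 9 of 40 (22.5%). At the chromosomes' own shares, 10.4 keratin genes, 4.39 cadherins, 4.28 ion channels and 3.93 neurotransmitter receptors would be covered. Kcnq3, a potassium channel of neurons, was covered over 291.3 kb of 300.3 kb, by regions that included one of 203.25 kb. Cacna1a, a calcium channel, was covered over 72.7%. Chemokines stood at 3 of 25 (12%), near the share of all coding genes, against 1.79 at the chromosomes' own shares. Ccl22 and Ccl26 were covered over 100% and Ccl1 over 4.07%, while 20 of the 25 chemokine genes had 0 covered bases. The lists were matched by symbol, and members within a family often lie side by side and share regions.

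**Figure D5:**
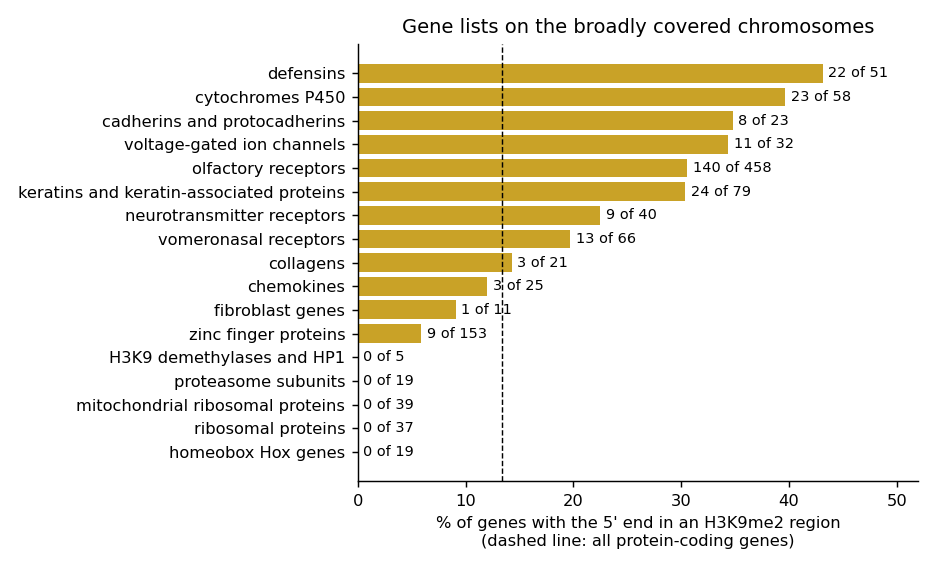
Percent of the genes of each list with the 5' end in an H3K9me2 region, over the broadly covered chromosomes, with the number of genes beside each bar. The dashed line marks 13.3%, the share of all 9632 protein-coding genes. Defensins (22 of 51) stand highest, and the ribosomal, mitochondrial ribosomal, proteasome and Hox lists are at 0. The H3K9 methyltransferase list, with 2 genes on these chromosomes, is not drawn.

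Zinc finger genes and genes used in all cells stood lower. Of 153 zinc finger genes, 9 (5.88%) had a covered start, and 121 had 0 covered bases, where 66.2% of all coding genes had none. Zfp423 was the exception by length, with 290.7 kb of its body covered. None of 37 ribosomal protein genes, 39 mitochondrial ribosomal protein genes and 19 proteasome genes had a covered start. At each chromosome's own share of coding starts, 4.83, 3.97 and 1.67 would be covered. Only 3.19% of all CpG-rich coding starts were covered, and the CpG content of these lists was not compared. The covered bases of these lists were 1.5 kb in Mrpl42 and 9.75 kb in Psmd9. Hox genes, which are patterning genes usually silenced by Polycomb where they are not used, had 0 of 19 starts in a region and 0 covered bases.

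Genes of the fibroblast programme stood near the share of all coding genes. Of 24 fibroblast genes, 11 lay on the broadly covered chromosomes, and 8 of those had 0 covered bases, close to the 66.2% of all coding genes. They included Col1a1, Sparc, Thy1, Tagln, Acta2 and Loxl2. Lum (lumican, chr10:97565128-97572703) was the only one with a covered start, in a region of 18 kb that reached over 21.4% of its body. Dcn (decorin, chr10:97479609-97518143) was covered over 64.2% of its body and Pdgfra over 8.17%. The 5' end of Dcn lay 1.64 kb from a region, with another annotated transcript start inside a region. Of 21 collagen genes, 3 had a covered start, against 3.66 at the chromosomes' own shares. However, 11 were covered over at least 50% of the body and the median body was covered over 50.5%. Col14a1 stood at 91.2%, Col22a1 at 74.8% and Col23a1 at 60.2%. Over all protein-coding genes of these chromosomes the median body was at 0% and 1568 of 9632 were covered over at least 50%. This pools chromosomes that differ widely. Chromosome 10 held 5 of the 21 collagen genes, and its median coding body was covered over 48.1%. Chromosome 9 held 6, and its median coding body was at 0%. Whether collagen bodies were covered above the level of their own chromosomes was not tested.

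Few of the genes for H3K9 methyltransferases could bear on the map. Suv39h1, Suv39h2, Setdb1 (Eset1), Setdb2 (Eset2), Ehmt2 (G9a) and Ehmt1 (Glp) had 0 covered bases, and only Setdb2 and Ehmt2 lay on broadly covered chromosomes, at 79.1 kb and 94.7 kb from a region. With 66.2% of coding genes at 0 there, and 98.0% of all genes at 0 on the other chromosomes, this count says little about these enzymes. Of 5 genes for H3K9 demethylases and HP1 proteins on these chromosomes, 0 had a covered start. Kdm4d was covered over 44.7% and Jmjd1c over 2.81%.

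The sequence under H3K9me2 differed little in base content from its surroundings. On the broadly covered chromosomes GC content was 43.3% in regions and 42.1% outside, and higher inside on 9 of 9 chromosomes. The observed over expected CpG ratio was 0.189 inside and 0.203 outside. Repeats marked in the assembly made up 31.4% of covered and 33.3% of other sequence, and were lower inside on 7 of 9 chromosomes. With width, the CpG ratio went from 0.209 in regions of 0.75 kb to 0.183 in those of over 50 kb. Edges with at least 9.75 kb of region on one side and of free sequence on the other numbered 1799. There the CpG ratio was 0.241 at 1.88 kb outside and 0.188 at the same distance inside. In the 0.75 kb next to the edge the order was reversed, with 0.189 outside and 0.199 inside. The ratio of 0.241 was the highest outside, where the next highest was 0.234. How many of these edges lay near a CpG-rich start was not counted. Repeats made up 35.2% of the last 0.75 kb outside and 30.5% of the first 0.75 kb inside.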

How the data were processed

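H3K9me2 ChIP (antibody ab1220) and input were sequenced as read pairs from crosslinked, sonicated chromatin, with 2 replicates each. Per the labels and the study's methods, the authors aligned reads with bwa 0.7.1 (version per the submitters' processing notes) to mm10 and called regions with histoneHMM, a hidden Markov model over bins. Its version, threshold and use of the input and of replicates are not given in the sources used here. The study's methods state a sequencing depth per sample, which was not checked here. The deposited list holds positions only, with 0 scores, so the depth behind each region is unknown. All starts and ends fell on a grid of 750 bp when read as 1-based with inclusive ends (0 exceptions).

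Widths, gaps, clusters (neighbours up to 10 kb apart, at least 5 regions), 1 Mb windows and gene overlaps were computed with Python 3.11.15, NumPy 2.4.6 and SciPy 1.17.1, from the GRCm38 sequence and GENCODE M21. Intervals of shares are 95% Wilson intervals, and those of medians are binomial. No test was made. The interval code was tested on simulated lists. Genes named were those the study discusses, the methyltransferases, fibroblast genes, the 10 with the most covered bases, the 5 longest at 0 and up to 3 members per list. Members and lists were chosen with earlier results of these data known, and some named items are not reported here. Other settings tried were a width minimum, joining, cluster gap, window size, gene sets, CpG limits and 0-based starts.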

Additional observations from a re-analysis of the deposited data

How the results depend on the processing

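No paired analysis was possible because replicate numbers enter neither the positions nor any other column, and leaving out a replicate could not be done for that reason. Keeping regions of at least 2 kb gave 244.6 Mb, a median width of 6 kb, a median gap of 6 kb and 49.7% of regions in clusters. Keeping those of at least 5 kb left 13579 regions, 211.4 Mb, a median width of 9.75 kb, 7.03% of gene starts and 7.97% of gene body length covered, 24.3% of CpG-poor starts and 31.3% repeats. Joining regions up to 1.5 kb apart gave 258.1 Mb and a median gap of 8.25 kb, and up to 5 kb apart 15271 regions, 282.1 Mb and a median width of 6 kb. Cluster gaps of 5 and 20 kb put 29.3% and 73.6% of regions in clusters. Windows without a region made up 54.5% of all 1 Mb windows, 59.7% at 500 kb, 48.8% at 2 Mb and 8.37% on broadly covered chromosomes. The share of gene starts, 8.49% over all genes, was 6.40% for protein-coding genes, 9.62% with any transcript start, 10.3% within 1 kb and 19.5% on broadly covered chromosomes. The share of gene body length, 9.45%, was 8.87% for protein-coding genes, 21.6% on broadly covered chromosomes and 9.22% with regions of at least 2 kb. CpG-poor starts stood at 26.6% over all genes and 12.5% over all chromosomes, and CpG-rich ones at 3.99% with limits of 0.3 and 0.5 and 1.57% over all chromosomes. CpG-poor starts stayed above CpG-rich ones under each of these 5 changes. The cause of these changes was not tested beyond the settings themselves.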
